A study of Mus musculus with 9 samples.

Results

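Acute phase proteins are secreted defence and transport proteins whose output rises in inflammation. Expression of 10 of their genes was examined in sorted bone marrow stromal cells of mice: Saa1, Saa2, Saa3, Lcn2, Lrg1, Hp, Cp, Serpina3n, Serpina3g and Lbp. A member was measured through a probe set that the platform table pairs with its symbol alone. This gave 9 probe sets for 9 genes, out of 35553 probe sets on the array, and Serpina3g is not analysed here. The liver is the main source of these proteins, where interleukin-6, acting through STAT3, and interleukin-1, acting through NF-kB and C/EBP factors, switch their genes on. Several are also made outside the liver, by stromal cells, fat cells and macrophages, and some (Lcn2, Hp and Lrg1) are also stored in the granules of neutrophils.

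The cells were CXCL12-abundant reticular (CAR) cells, the marrow stroma that produces the chemokine Cxcl12. All mice carried 1 gfp allele in the Cxcl12 locus (Cxcl12+/gfp), and cells bright for the fluorescent protein and negative for lineage markers were sorted. Of the 9 arrays, 5 came from treatment with 250 µg/kg per day of granulocyte colony-stimulating factor (G-CSF) and 4 from treatment with phosphate-buffered saline (PBS), both over 5 days. RNA was amplified and hybridised to Affymetrix Mouse Gene 1.0 ST arrays. The labels call the arrays biological replicates without naming the animals or pools behind them, so the p-values speak only of the spread among arrays, which may be technical. Strain background and age are not given in the sources used here, and the source names speak of pre-B colonies and an Hspa9 genotype, which the titles and protocols contradict. Levels are log2 RMA intensities, and a change is G-CSF minus PBS on that scale. SE is its standard error in a limma fit to 21789 probe sets. A gene is said to have risen or fallen at a Benjamini-Hochberg adjusted p under 0.05 over all of them.

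Array medians were 5.12 to 5.22 on the log2 scale. The interquartile range was narrower in PBS replicate 3 (2.45) than on the other arrays (2.71 to 2.99). The arrays split along the first principal component (34.9% of the variance) into set 1 (PBS replicates 1 and 2, G-CSF replicates 1 to 3) and set 2 (PBS replicates 3 and 4, G-CSF replicates 4 and 5), which the labels do not name. PBS replicate 3 lay farthest out, at -56.5, against 30.3 for the next array (PBS replicate 1). The next on its own side was PBS replicate 4, at -22.5. Of 13 CAR markers, 8 fell and 0 rose in limma, where 0.877% of all probe sets fell and 0.743% rose. Their mean went from 10.56 ± 0.09 (SD, n = 4) to 9.70 ± 0.02 (n = 5). At an unadjusted p under 0.05, 10 were lower and 0 higher, against 4.81% and 4.41% of all probe sets. The mean of 20 neutrophil genes went from 7.69 ± 0.65 to 8.64 ± 0.30. In bulk RNA, a change in the number of cells of a type and a change in RNA per cell cannot be told apart. Signal of 8 hepatocyte markers, albumin (Alb) and the fibrinogen chains among them, averaged 3.94 ± 0.22 in PBS and 3.92 ± 0.15 in G-CSF, and 0 of them passed the threshold in limma (0 also at an unadjusted p under 0.05).

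Saa3 and Lrg1 rose after G-CSF, Saa3 by 6.42-fold and Lrg1 by 2.78-fold. The other 7 measured members did not pass, and no member fell. At an unadjusted p under 0.05 in limma, 6 members were higher and 0 lower, where 4.41% of all probe sets were higher and 4.81% lower. Lcn2, Saa1, Serpina3n and Saa2 had positive changes of 0.50 to 1.20, whereas those of Hp, Lbp and Cp lay between -0.19 and 0.24. The 2 risen members of 9 stand beside a background of 0.743% of all probe sets called as risen and 0.877% called as fallen in limma. The median change over the 9 members was 0.52, against 0.01 over all 19938 genes tested. In 2 members, Saa3 and Lrg1, every G-CSF array lay above every PBS array, which held for 2.18% of all probe sets.

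**Figure D1:**
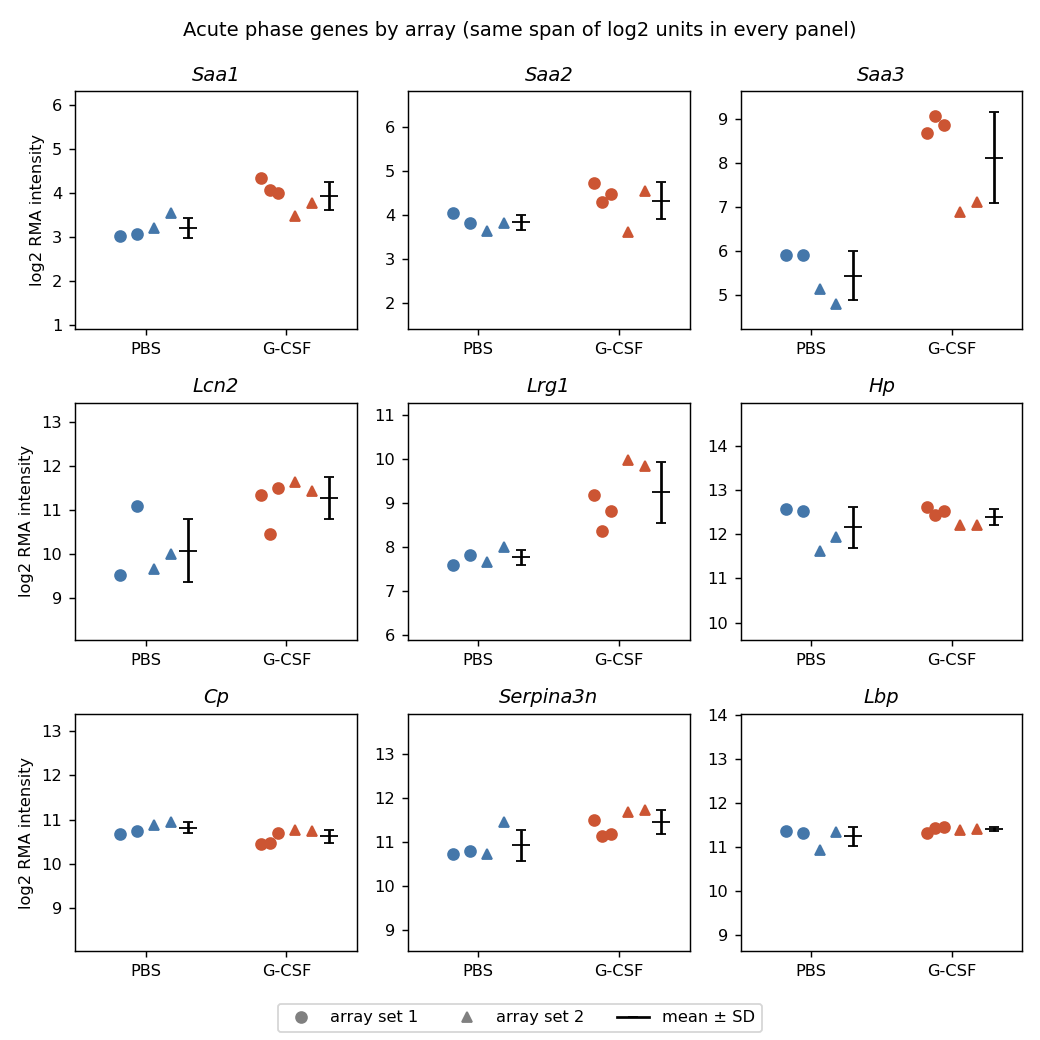
Log2 RMA intensity of the 9 measured acute phase genes on each array, PBS (blue) and G-CSF (orange), with circles for array set 1, triangles for array set 2 and bars for mean ± SD (n = 4 and n = 5); all panels span the same number of log2 units around their own centre. Only in the panels of Saa3 and Lrg1 do all G-CSF arrays lie above all PBS arrays.

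The serum amyloid A genes encode small apolipoproteins that join high-density lipoprotein in inflammation. Saa1 and Saa2 are the main liver forms of the mouse, and Saa3 is the form made mostly by fat cells, macrophages and other cells outside the liver. In the RefSeq gene table the 4 Saa genes follow each other on chromosome 7 in the order Saa3, Saa4, Saa1, Saa2. The 250 bases before the start of each gene are shown for Saa3, which rose, and for Saa1 and Saa2, which did not pass, to let the neighbours be compared (RefSeq, GRCm38.p6). Capitals mark matches on either strand to TTNNGNAA, a loose form of the C/EBP recognition sequence, and to GGNNTTTCC, a loose form of the NF-kB recognition sequence.

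Saa3, chr7:46715677-46715926, minus strand: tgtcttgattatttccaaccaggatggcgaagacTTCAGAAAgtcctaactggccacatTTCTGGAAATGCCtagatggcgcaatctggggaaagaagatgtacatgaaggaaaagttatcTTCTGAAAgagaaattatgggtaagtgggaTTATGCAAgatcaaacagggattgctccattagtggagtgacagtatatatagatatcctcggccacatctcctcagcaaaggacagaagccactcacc
Saa1, chr7:46742981-46743230, minus strand: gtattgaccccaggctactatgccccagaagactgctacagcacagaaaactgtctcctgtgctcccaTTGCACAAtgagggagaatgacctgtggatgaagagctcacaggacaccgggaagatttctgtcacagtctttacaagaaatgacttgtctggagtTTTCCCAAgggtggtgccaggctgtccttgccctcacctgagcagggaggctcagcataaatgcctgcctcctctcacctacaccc
Saa2, chr7:46751583-46751832, plus strand: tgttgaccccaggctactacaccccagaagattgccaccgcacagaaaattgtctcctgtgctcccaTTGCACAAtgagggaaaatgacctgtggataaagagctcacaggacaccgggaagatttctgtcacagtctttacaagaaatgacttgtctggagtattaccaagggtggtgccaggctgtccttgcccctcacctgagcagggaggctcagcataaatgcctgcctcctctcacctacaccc

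Saa1 and Saa2 shared 95.6% of 249 aligned bases in these windows, while Saa3 shared 59.4% with Saa1 and 62.5% with Saa2. Saa3 held 4 matches to TTNNGNAA, Saa1 held 2 and Saa2 held 1. Saa1 and Saa2 had the match TTGCACAA in common. The match nearest to the start of Saa3 was TTATGCAA, from 99 to 92 bases before it. Of 32851 promoter windows of this length, 36.8% held at least 1 such match. Saa3 alone of the 3 held a match to GGNNTTTCC (4.93% of all windows), on the other strand as GGAAATGCC. This match ran from 187 to 179 bases before the start and overlapped the C/EBP match TTCTGGAA. Saa1 held GGAGTTTTCC, with 1 base more between GG and TTTCC, which the pattern does not count. A window without a match to this pattern is therefore not shown to lack an NF-kB sequence. None of the 3 held TTCNNNGAA, the STAT recognition sequence (7.02% of all windows). A match of letters is a description and does not show that a factor binds.

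Saa3 read 5.91, 5.92, 5.15 and 4.80 in PBS replicates 1 to 4. In G-CSF replicates 1 to 5 it read 8.69, 9.07, 8.87, 6.89 and 7.13. The groups did not overlap, and in both of them the arrays of set 2 lay below those of set 1. The mean went from 5.45 ± 0.56 to 8.13 ± 1.04, a change of 2.68 (SE 0.45, limma adjusted p = 0.00975). Saa3 kept this call whichever array was left out, at an adjusted p of 0.00426 to 0.0382. It lost the call when every probe set of the table was tested (adjusted p = 0.0577) and with the mean of the neutrophil genes as a covariate (adjusted p = 0.269). Its change was 2.96 in set 1 and 2.03 in set 2, and with the set as a block the adjusted p was 3.03e-05. The change in set 2 minus that in set 1 was -0.93 (SE 0.28), which did not pass over all probe sets (interaction in limma, adjusted p = 0.864).

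Saa1 read 3.01, 3.06, 3.18 and 3.53 in the PBS arrays and 4.33, 4.05, 3.99, 3.48 and 3.75 in the G-CSF arrays. G-CSF replicate 4 lay below PBS replicate 4, and the other 4 G-CSF arrays lay above all PBS arrays. The change was 0.72 (SE 0.19) and did not pass (adjusted p = 0.0983). It was 1.09 in set 1, where it passed (adjusted p = 0.0403), and 0.26 in set 2 (adjusted p = 0.794). The difference of the set changes, -0.83, did not pass (adjusted p = 0.864).

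Saa2 ranged from 3.66 to 4.06 in PBS and from 3.63 to 4.73 in G-CSF, so the groups overlapped. G-CSF replicate 4 was the lowest of all 9 arrays. Its change was 0.50 (95% interval 0.04 to 0.95, adjusted p = 0.462). Saa4, the constitutive form of the family, stood at 3.67 ± 0.27 and 3.43 ± 0.26 (change -0.24, adjusted p = 0.822). Saa1 and Saa2 are near-identical genes, so which of them gave the signal of either probe set is uncertain, and RMA carries no detection call for such low values. Cross-hybridisation between Saa3 and its relatives was not tested.

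**Figure D2:**
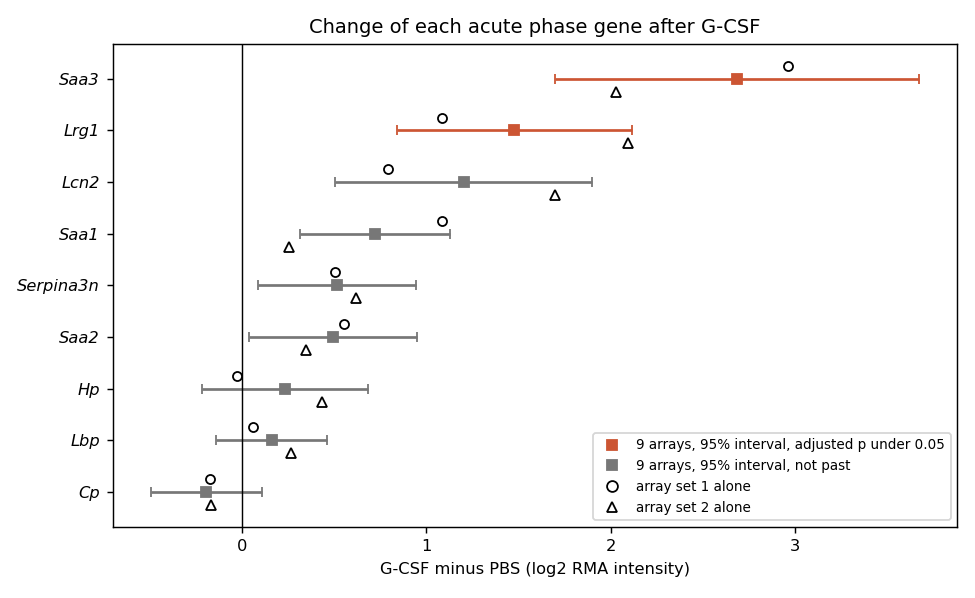
Change of each acute phase gene, G-CSF minus PBS in log2 RMA intensity: squares and bars give the limma estimate over 9 arrays with its 95% interval (not adjusted over genes), open circles array set 1 alone and open triangles array set 2 alone. Saa3 (2.68) and Lrg1 (1.48) are orange because they passed the threshold; Saa3 lies higher in set 1 and Lrg1 in set 2.

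Lrg1, Lcn2 and Hp are acute phase proteins that mature and developing neutrophils also contain. Lrg1 encodes leucine-rich alpha-2-glycoprotein, a secreted protein that modulates TGF-beta signalling in endothelium. Its 250 bases before the start are shown because it is the other member that rose (RefSeq, GRCm38.p6). No letters are in capitals, since none of the 3 patterns above was found in them.

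Lrg1, chr17:56121947-56122196, minus strand: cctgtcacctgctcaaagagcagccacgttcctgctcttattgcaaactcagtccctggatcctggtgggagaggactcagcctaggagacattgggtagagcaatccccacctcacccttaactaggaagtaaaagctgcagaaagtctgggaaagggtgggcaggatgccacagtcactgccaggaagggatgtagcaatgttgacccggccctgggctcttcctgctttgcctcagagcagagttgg

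Lrg1 read 7.58, 7.81, 7.64 and 7.99 in PBS replicates 1 to 4 and 9.17, 8.36, 8.81, 9.98 and 9.83 in G-CSF replicates 1 to 5. Every G-CSF array lay above every PBS array, and the G-CSF arrays of set 2 were the highest. The mean went from 7.75 ± 0.18 to 9.23 ± 0.68, a change of 1.48 (SE 0.29, limma adjusted p = 0.0257). The call was kept without G-CSF replicate 2 or 3 and lost without any other array, where the highest adjusted p was 0.0835 (PBS replicate 1 left out). Those losing it were PBS replicates 1 to 4 and G-CSF replicates 1, 4 and 5, without which the change was 1.29 to 1.55. Within sets the change was 1.09 in set 1 (adjusted p = 0.118) and 2.09 in set 2 (adjusted p = 0.0249), and with the set as a block the adjusted p was 0.00270. The G-CSF arrays of set 2, replicates 4 and 5, were the closest pair within either group. The SD of their log2 differences was 0.279, against 0.372 to 0.670 for the other pairs, and their independence was not tested. With these arrays averaged, the limma adjusted p of Lrg1 over all arrays was 0.0539. The set 2 change exceeded the set 1 change by 1.01 (SE 0.35), the opposite order to Saa3, and this did not pass (adjusted p = 0.864).

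Lcn2 encodes lipocalin 2, which binds bacterial siderophores and so withholds iron. Its levels were 9.51, 11.09, 9.66 and 9.999 in PBS replicates 1 to 4 and 11.34, 10.45, 11.50, 11.63 and 11.42 in G-CSF replicates 1 to 5. PBS replicate 2 was high among the controls and G-CSF replicate 2 low among the treated arrays, and the groups overlapped through them. The change was 1.20 (SE 0.32, 2.30-fold) and did not pass (adjusted p = 0.109). It passed without PBS replicate 2 (1.55, adjusted p = 0.0140) and without G-CSF replicate 2 (1.41, adjusted p = 0.0478). In set 2 alone, which holds neither array, it was 1.70 (adjusted p = 0.0414), and in set 1 alone it was 0.79 (adjusted p = 0.605). The set 2 value rests on the close pair of G-CSF replicates 4 and 5. Its promoter window held 1 C/EBP match, TTGCTCAA, from 216 to 209 bases before the start.

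Haptoglobin (Hp), which captures free haemoglobin, read 12.57, 12.54, 11.62 and 11.94 in PBS and 12.62, 12.44, 12.53, 12.21 and 12.22 in G-CSF. Only PBS replicates 3 and 4 lay below the G-CSF range. The change was 0.24 (95% interval -0.22 to 0.69, adjusted p = 0.882), and 0.05 without PBS replicate 3. It was -0.03 in set 1 and 0.44 in set 2.

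Neutrophil transcripts moved with the treatment beside these members. All 20 measured neutrophil genes had a positive change, with a median of 1.02. Of the 20, 3 rose and 17 did not pass, where 0.743% of all probe sets rose. At an unadjusted p under 0.05 in limma, 14 were higher and 0 lower, against 4.41% and 4.81% of all probe sets. With the array set as a block 6 rose, where 287 of 21789 probe sets did. The added ones were Pglyrp1 (adjusted p = 0.0364), Mmp8 (0.0157) and Cxcr2 (0.00897). Mmp9, a gelatinase of neutrophil granules whose protein forms a complex with lipocalin 2, rose by 1.64 (adjusted p = 0.0257). Cd177, a neutrophil surface protein, rose by 1.27 (adjusted p = 0.0274). Csf3r, the receptor of G-CSF itself, rose by 0.94 (adjusted p = 0.0262). Other granule genes did not pass, S100a8 at 0.85 (adjusted p = 0.269) and Ltf, lactoferrin, at 1.12 (adjusted p = 0.225). With 1 array left out, Mmp9 kept its call in 3 of 9 fits (without PBS replicate 2 or 3 or G-CSF replicate 5), Cd177 in 4 (without PBS replicate 2 or 3 or G-CSF replicate 2 or 3) and Csf3r in 3 (without PBS replicate 2 or 4 or G-CSF replicate 2). The highest adjusted p of these fits were 0.0792, 0.0885 and 0.0886.

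The mean of the 20 neutrophil genes was 7.15, 8.60, 7.69 and 7.33 in PBS replicates 1 to 4 and 8.84, 8.13, 8.84, 8.77 and 8.62 in G-CSF replicates 1 to 5. PBS replicate 2 was the highest control and G-CSF replicate 2 the lowest treated array, as for Lcn2. Lcn2 minus this mean lay between 1.97 and 2.67 in PBS and between 2.31 and 2.87 in G-CSF. For Saa3 the same difference was -2.68 to -1.24 in PBS and -1.88 to 0.94 in G-CSF, and for Lrg1 it was -0.80 to 0.65 and -0.03 to 1.22. The groups overlapped in this difference for all 3 genes. With the neutrophil mean as a covariate, the change of Lcn2 was 0.15, that of Lrg1 1.19 and that of Saa3 2.65. This mean is itself tied to the treatment, and in that fit 49 probe sets and none of the members passed (adjusted p = 0.269 for Saa3 and 0.625 for Lrg1). Which cells carried these transcripts was not tested.

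**Figure D3:**
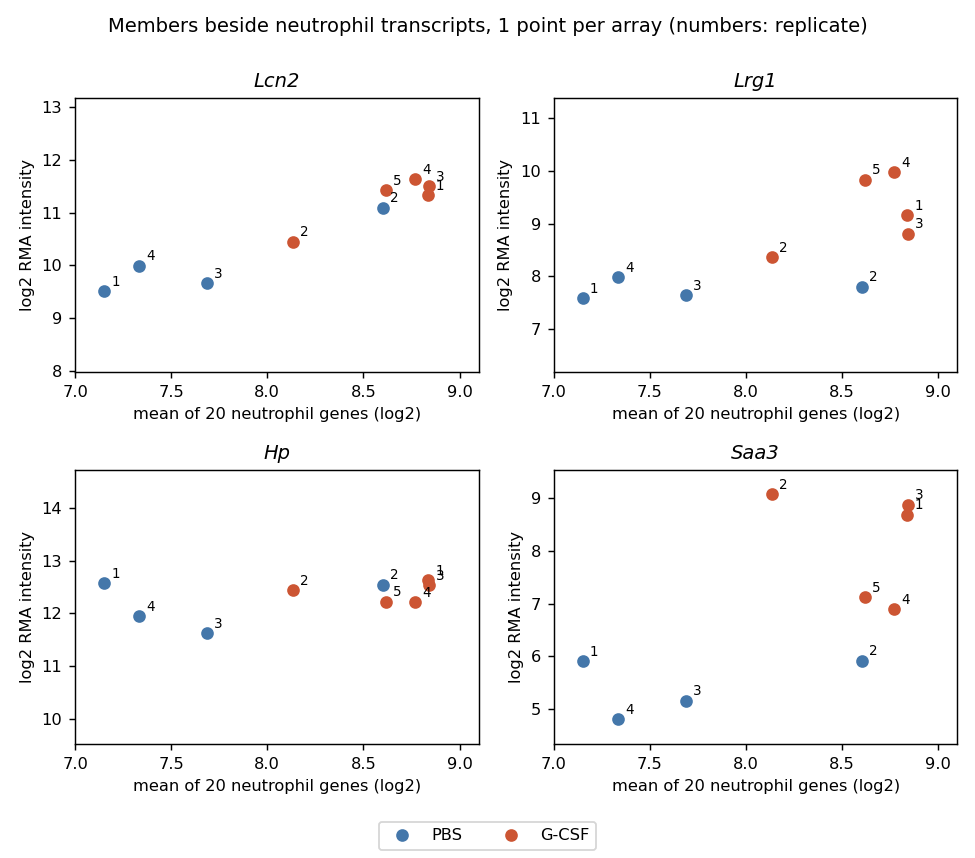
Log2 RMA intensity of Lcn2, Lrg1, Hp and Saa3 (vertical) against the mean log2 intensity of 20 neutrophil genes (horizontal), 1 point per array with its replicate number, PBS in blue and G-CSF in orange. PBS replicate 2 lies with the G-CSF arrays for Lcn2 (11.09) but with the PBS arrays for Lrg1 (7.81) and Saa3 (5.92).

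The remaining members, Serpina3n, Cp and Lbp, are plasma proteins that stromal and fat cells also make. Serpina3n encodes a serine protease inhibitor of the antichymotrypsin type. It read 10.73, 10.80, 10.72 and 11.46 in PBS and 11.49, 11.14, 11.18, 11.69 and 11.73 in G-CSF. PBS replicate 4 lay within the G-CSF range, and the other PBS arrays lay below all G-CSF arrays. The change was 0.52 (SE 0.20, adjusted p = 0.364), with 0.50 in set 1 and 0.62 in set 2, and 0.69 at the most with 1 array left out (adjusted p = 0.125). Its promoter window held 1 match to the NF-kB pattern (4.93% of all windows), GGCTTTTCC from 170 to 162 bases before the start, and 2 to the C/EBP pattern (36.8% of all windows), TTTCATAA and TTTCCTAA.

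Ceruloplasmin (Cp), the copper oxidase that loads iron onto transferrin, ranged from 10.67 to 10.95 in PBS and from 10.44 to 10.76 in G-CSF. It was the only measured member with a negative change, -0.19 (95% interval -0.49 to 0.11, adjusted p = 0.819), and the values were alike in set 1 (-0.17) and set 2 (-0.17). The table gives Cp 2 starts, of which the first had 1 C/EBP match (TTTCTAAA) and the second had 1 C/EBP match (TTTTGCAA) and 1 NF-kB match (GGTTTTTCC). Lipopolysaccharide binding protein (Lbp), which hands bacterial lipopolysaccharide to Cd14 and Tlr4, read 11.36, 11.34, 10.93 and 11.36 in PBS and 11.33 to 11.46 in G-CSF. PBS replicate 3 alone lay clearly below the rest. The change was 0.16 (95% interval -0.14 to 0.46, adjusted p = 0.873), and 0.06 without that array.

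Of 36 other acute phase genes listed, 25 were measured. Among these, with a median change of -0.08, 0 rose and 1 fell in the limma fit, where 0.743% of all probe sets rose and 0.877% fell. At an unadjusted p under 0.05, 0 were higher and 2 lower (Cfb and Rbp4), beside 4.41% and 4.81% of all probe sets. The list was not split by the direction expected in inflammation, and it also holds Alb, Ttr, Trf, Ahsg and Rbp4. Its PBS means ran from 2.74 (Apcs) to 11.45 (Mt2), and those of Crp (4.22), Fgg (3.02) and Saa4 (3.67) lay below the array medians. Cfb, complement factor B, fell by 0.74, from 9.44 ± 0.22 to 8.71 ± 0.17 (adjusted p = 0.0324). The Cfb call was kept in 1 of 9 fits with an array left out (without PBS replicate 1), and the highest adjusted p was 0.106 (PBS replicate 4 left out). Crp, C-reactive protein, was at -0.15 (adjusted p = 0.883). The metallothioneins Mt1 (0.05) and Mt2 (0.12), the transferrin gene Trf (-0.11) and the pentraxin Ptx3 (0.01) had adjusted p of 0.968 to 0.998.

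The list of inducing cytokines, receptors and regulators had 25 of 28 genes measured, with a median change of 0.28. Of these, 5 rose and 0 fell in limma, where 0.743% of all probe sets rose and 0.877% fell. At an unadjusted p under 0.05, 8 were higher and 0 lower (all probe sets, 4.41% and 4.81%). Jak2, a kinase of the gp130 and G-CSF receptors, rose 2.32-fold, from 7.31 ± 0.23 to 8.53 ± 0.18 (adjusted p = 0.00162). A rise of 1.02 was seen for Osmr, which encodes a receptor chain for oncostatin M (adjusted p = 0.00219). Jak2 and Osmr kept their calls in all 9 fits with an array left out. Both lost them with the neutrophil covariate (adjusted p = 0.151 and 0.174) and in set 2 alone (0.0998 and 0.109), and Osmr also in set 1 alone (0.0533). The sizes stayed close to those of the main fit (1.22 for Jak2 and 1.02 for Osmr). They were 1.10 and 0.92 with the covariate, which is tied to the treatment, and 1.38 and 1.12 in the 4 arrays of set 2. Il1rn, the interleukin-1 receptor antagonist and itself an acute phase product, rose by 0.73 (adjusted p = 0.0247), and Tnf rose by 0.84 (adjusted p = 0.0376). Il1rn kept its call without PBS replicate 1 or 3 or G-CSF replicate 2 or 3, and Tnf without G-CSF replicate 4 or 5, and the highest adjusted p of their other fits were 0.0823 (PBS replicate 4 left out) and 0.116 (PBS replicate 1 left out). Tnf had a PBS mean of 4.72, below the array medians, and lost its call in 15 of 23 alternatives. Among these were a pseudocount of 16 (limma adjusted p = 0.0583), median centring (0.0530) and array weights (0.0560). The fifth gene was Csf3r, described above. Il6 was at 1.17 (SE 0.45, adjusted p = 0.371), Socs3, the feedback inhibitor induced by STAT3, at 0.28 (adjusted p = 0.702), and Stat3 at 0.18 (adjusted p = 0.844). Cebpb (0.02) and Cebpd (-0.19), the C/EBP factors of the acute phase response, did not pass (adjusted p = 0.998 and 0.972).

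Receptors and partners of the member proteins moved in both directions. Of 19 measured, 1 rose (Mmp9, above) and 2 fell, with a median of 0.05, where 0.743% of all probe sets rose and 0.877% fell. At an unadjusted p under 0.05 in limma, 3 were higher and 3 lower, beside 4.41% and 4.81% of all probe sets. Both that fell handle haem or iron, as do listed genes that did not pass, such as Cd163 (-0.04) and Bdh2 (0.10). Hmox1, haem oxygenase 1, which degrades haem, fell by 0.99 (adjusted p = 0.0374), and Heph, hephaestin, a copper oxidase related to ceruloplasmin, fell by 0.72 (adjusted p = 0.0450). Each kept its call in 1 of 9 fits with an array left out, Hmox1 without PBS replicate 4 and Heph without PBS replicate 3, and the highest adjusted p were 0.112 (PBS replicate 2 left out) and 0.140 (PBS replicate 4 left out). Slc40a1, ferroportin, the iron exporter that works with these oxidases, had a change of -1.15 (adjusted p = 0.0690). It passed with the array set as a block (adjusted p = 0.00889). Tlr4 was at 0.56 (adjusted p = 0.101), Cd14 at 0.51 (adjusted p = 0.879) and Slc22a17, a lipocalin 2 receptor, at -0.18 (adjusted p = 0.873).

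**Figure D4:**
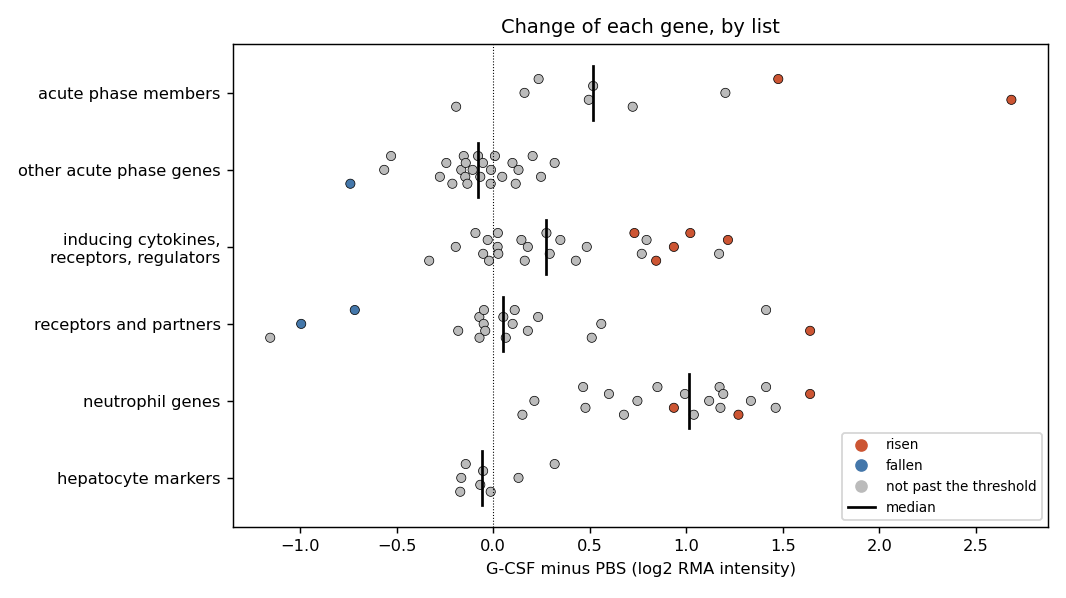
Change of each measured gene, G-CSF minus PBS in log2 RMA intensity, by list (1 point per gene, vertical jitter for legibility, black line at the median), with risen genes orange, fallen genes blue and others grey. The members' median is 0.52 and that of 20 neutrophil genes 1.02. That of 25 other acute phase genes, not split by expected direction or level, is -0.08.

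The genes whose profile over the 9 arrays was nearest to a member were found by the root mean square difference of centred log2 values. For Lcn2 they were Chil1 (0.19), Itgb2 (0.22), Tarm1 (0.24), Ltf (0.25) and Pglyrp1 (0.26), of which Ltf and Pglyrp1 belong to the neutrophil list. For Lrg1 they were Cybb (0.27), Ptgr1 (0.28), Cd300lf (0.29), Gcnt2 (0.30) and Rgs20 (0.31). For Saa3 they were S100a6 (0.52), Stfa3 (0.56), Snord61 (0.65), Cyyr1 (0.71) and Wfdc21 (0.74). These distances grow with a member's own spread and are not compared between members. They span both groups, so a near gene may share the change after G-CSF. Genes off the neutrophil list were not assigned to a cell type. No gene was shared between the 3 groups of 5.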

How the data were processed

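Per the submitters' processing notes, the authors computed the deposited intensity values by RMA with Affymetrix Expression Console (versions not given in the sources used here). RMA background-corrects, normalises arrays to a shared distribution and summarises probes, so differences are relative to other transcripts and total RNA per cell cannot be seen. The intensities (1.73 to 15673.1) are linear, and log2 was taken here. Groups came from the sample titles.

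Of 35553 probe sets, 21789 had 1 gene symbol and were tested, 1621 had several and 12143 had none listed. Each of the 9 measured members had 1 probe set; for other genes the probe set with the highest mean was used. G-CSF was compared with PBS by limma 3.58.1 in R 4.3.3 (lmFit, eBayes, two-sided), without covariates or a filter on low values, and adjusted by Benjamini-Hochberg. The number of arrays limits the precision. The members and lists were chosen with earlier results of these data known. Named were all members, the genes of 4 lists that passed, others for their role after their values were seen, and the 5 genes nearest to each of Saa3, Lrg1 and Lcn2, predicted and clone names left out. The array sets were defined by the first principal component, after seeing the data. The fit was tested on simulated data. Promoter windows come from RefSeq and were matched for 8 of the 10 genes, not for Hp and Lbp.

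Replicate numbers were not used as pairs. Alternatives covered the probe sets tested, a filter on low values, a pseudocount of 16, the variance model, normalisation, centring, array weights, the replicate block, the threshold, a neutrophil covariate and each array left out. Those added after seeing the data were the array sets and G-CSF replicates 4 and 5 averaged.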

Additional observations from a re-analysis of the deposited data

Results flagged for a closer look

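In 3 of the 32 groups of values examined (9 members and 7 marker lists, in PBS and in G-CSF), 1 array stood far from the others of its group by Dixon's criterion, which chance meets in about 1 in 20 groups. Lcn2 in G-CSF replicate 2 was at 10.45, below the next array at 11.34. Serpina3n in PBS replicate 4 was at 11.46, above the next at 10.80. Lbp in PBS replicate 3 was at 10.93, below the next at 11.34, and PBS replicate 3 is also the array farthest out on the first principal component.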

How the results depend on the processing

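Against 353 probe sets and 2 members changed over all 9 arrays, the counts were 181 and 0 when all probe sets of the table were tested, 180 and 1 with the replicate block, and 49 and 0 with the neutrophil mean as a covariate. The members called were 1 with a pseudocount of 16 and 1 with G-CSF replicates 4 and 5 averaged, in both cases without Lrg1 (adjusted p = 0.0543 and 0.0539). The probe sets called were 598 with the array set as a block, 202 in set 1 and 59 in set 2. Leaving out 1 array gave 210 (without PBS replicate 1) to 318 probe sets, (222 if G-CSF replicate 1 was dropped and 224 if replicate 4 was), and 1 to 3 members. Saa3 passed in 22 of 24 alternatives, and missed at an adjusted p of 0.0577 when all probe sets were tested and of 0.269 with the neutrophil covariate. Lrg1 lost its call in 13 of 24 and kept its direction in all of them. The change of Hp turned to -0.027 with array set 1 alone, and no other member's change turned its sign in the alternatives run. Saa1 passed at a threshold of 0.10.

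No pairing by replicate number was seen in whole-array deviations. These also carry the array set, and PBS and G-CSF replicate 3 fall in different sets, so shared handling of same-numbered arrays is not excluded. Deviations of same-numbered arrays correlated at 0.28, 0.14, -0.28 and 0.35 across probe sets for replicates 1 to 4, and 0 of the 4 PBS arrays matched best with its own number. With the replicate block, Saa3 was at 2.93 (adjusted p = 0.00267) and Lrg1 at 1.33 (adjusted p = 0.0502). Signal over background cannot be judged from RMA values, which limits Saa1 and Saa2 most.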
